A study of Mus musculus with 4 samples.

Results

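Protein-coding genes with alternative promoters were examined in ATAC-seq peak lists of mouse visceral adipose tissue. Members were genes of the curated RefSeq annotation on chromosomes 1 to 19 that had at least 2 start sites more than 5 kb apart. This rule found 1328 of 20021 genes, with 2958 of 21651 promoters. Of these genes 1089 had 2 promoters, 188 had 3, 42 had 4, 6 had 5 and 3 had 6. Promoters were numbered along the gene, so that P1 held the start site farthest upstream. A promoter was called open in a library when a peak overlapped the 500 bp either side of any of its start sites by at least 1 bp.

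The series held 4 libraries from CD-1 mice, an outbred stock, all 8 weeks old. The 2 control libraries came from descendants of dams injected with sesame oil. The 2 BPA libraries came from descendants of dams injected with bisphenol A (BPA), a compound with estrogenic activity, at 50 mg/kg. In both groups the injections ran from embryonic day 7.5 to 13.5, and the animals sampled had not been injected themselves. The sample titles and the study's methods name different generations for the BPA animals, and the labels give neither sex nor batch. Whole tissue was used, so that a peak lost from a cell type and fewer cells of that type cannot be told apart. The study proposes that sequence variants between CD-1 mice can change peaks. The labels give no genotype of single animals, so that such variants and differences between the groups cannot be told apart.

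A gene with several promoters can make transcripts with different first exons from the same locus. The transcripts may encode proteins with different N termini, or the same protein under a different control. Many promoters lie in CpG islands, stretches rich in the dinucleotide CG that tend to be open in most tissues. Promoters without such islands are more often restricted to certain cell types. In fat, a textbook case is Pparg, the nuclear receptor that drives adipocyte differentiation, whose upstream promoter gives the widely expressed isoform 1 and whose downstream promoter gives the adipocyte isoform 2.

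The 120 bases before the start sites of 6 genes with 2 promoters each show the kinds of pair that recurred below. They were read from GRCm38, the assembly that mm10 names, run 5′ to 3′ on the strand of the gene, and overlap no curated exon. Capitals mark CG dinucleotides. The first pair is Pparg, with both promoters open in all 4 libraries.
Pparg P1, chr6:115360831-115360950, plus strand: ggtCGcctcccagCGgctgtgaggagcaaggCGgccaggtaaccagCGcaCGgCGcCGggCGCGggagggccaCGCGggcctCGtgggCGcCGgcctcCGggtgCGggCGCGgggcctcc
Pparg P2, chr6:115421946-115422065, plus strand: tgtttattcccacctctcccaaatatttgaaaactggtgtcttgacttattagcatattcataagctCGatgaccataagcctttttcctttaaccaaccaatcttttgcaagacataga
The bases before P1 held 18 CG dinucleotides and those before P2 held 1, and P2 lay 61.1 kb downstream in an intron. The next pairs are Rarb, a retinoic acid receptor, and Mlxipl, the carbohydrate response factor ChREBP. In both genes P2 was open in all 4 libraries and P1 in none.
Rarb P1, chr14:17082332-17082451, minus strand: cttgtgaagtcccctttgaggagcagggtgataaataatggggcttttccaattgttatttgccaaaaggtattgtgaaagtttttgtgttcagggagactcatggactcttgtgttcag
Rarb P2, chr14:16575477-16575596, minus strand: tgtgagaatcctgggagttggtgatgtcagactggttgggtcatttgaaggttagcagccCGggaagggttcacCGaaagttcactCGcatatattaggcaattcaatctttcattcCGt
Mlxipl P1, chr5:135089770-135089889, plus strand: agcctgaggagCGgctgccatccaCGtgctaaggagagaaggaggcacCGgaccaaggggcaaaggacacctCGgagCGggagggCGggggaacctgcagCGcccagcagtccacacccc
Mlxipl P2, chr5:135106771-135106890, plus strand: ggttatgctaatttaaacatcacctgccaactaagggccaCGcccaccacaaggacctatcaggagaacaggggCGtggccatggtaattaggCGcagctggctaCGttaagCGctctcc
P2 of Rarb carried the hexamers GGTTCA and AGTTCA spaced by 5 bases, the direct repeat known as its retinoic acid response element. On either strand this arrangement was found in 3 of all 21651 promoters (0.0139%), and among the 2958 promoters of members only there. The last pairs are genes with 1 promoter open in a single group. P2 of Ccm2, a scaffold protein of endothelial junctions, was open in both BPA libraries and in no control library. P2 of Pik3r1, the gene of the regulatory subunits of PI3-kinase, was open in both control libraries and in no BPA library. In Nr2f2, the orphan receptor COUP-TFII, P2 was open in both BPA libraries and P1 in 1 control library.
Ccm2 P1, chr11:6546767-6546886, plus strand: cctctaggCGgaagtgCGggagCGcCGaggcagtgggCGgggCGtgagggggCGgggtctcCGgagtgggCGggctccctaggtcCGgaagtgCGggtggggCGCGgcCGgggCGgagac
Ccm2 P2, chr11:6560063-6560182, plus strand: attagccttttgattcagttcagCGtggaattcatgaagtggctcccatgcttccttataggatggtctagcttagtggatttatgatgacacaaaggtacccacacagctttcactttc
Pik3r1 P1, chr13:101768218-101768337, minus strand: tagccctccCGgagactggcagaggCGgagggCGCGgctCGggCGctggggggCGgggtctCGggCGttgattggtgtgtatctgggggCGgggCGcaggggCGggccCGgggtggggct
Pik3r1 P2, chr13:101692631-101692750, minus strand: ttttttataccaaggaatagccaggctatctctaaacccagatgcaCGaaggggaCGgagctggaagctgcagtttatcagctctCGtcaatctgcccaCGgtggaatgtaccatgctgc
Nr2f2 P1, chr7:70366747-70366866, minus strand: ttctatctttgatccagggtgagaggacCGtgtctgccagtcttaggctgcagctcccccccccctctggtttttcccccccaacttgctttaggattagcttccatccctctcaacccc
Nr2f2 P2, chr7:70360594-70360713, minus strand: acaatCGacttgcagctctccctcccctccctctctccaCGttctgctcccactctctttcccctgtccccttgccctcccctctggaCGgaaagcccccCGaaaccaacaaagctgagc

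The first question was how many promoters of a gene were open. In each library the most common state was 1 open promoter. Exactly 1 promoter was open in 611 genes of control 1 (46.0%, 95% Wilson interval 43.3 to 48.7%), 635 genes of control 2 (47.8%, 45.1 to 50.5%), 587 genes of BPA 1 (44.2%, 41.6 to 46.9%) and 547 genes of BPA 2 (41.2%, 38.6 to 43.9%). Every promoter was open in 387, 356, 433 and 527 genes in the same order. The Wilson intervals cover counting error only. No promoter was open in 210, 237, 194 and 148 genes. BPA 2 held the most genes with every promoter open, and it also held the most peaks, 98060 against 72375 to 88911 in the other lists, and the widest, with a median of 780 bp against 456 to 567 bp.

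**Figure D1:**
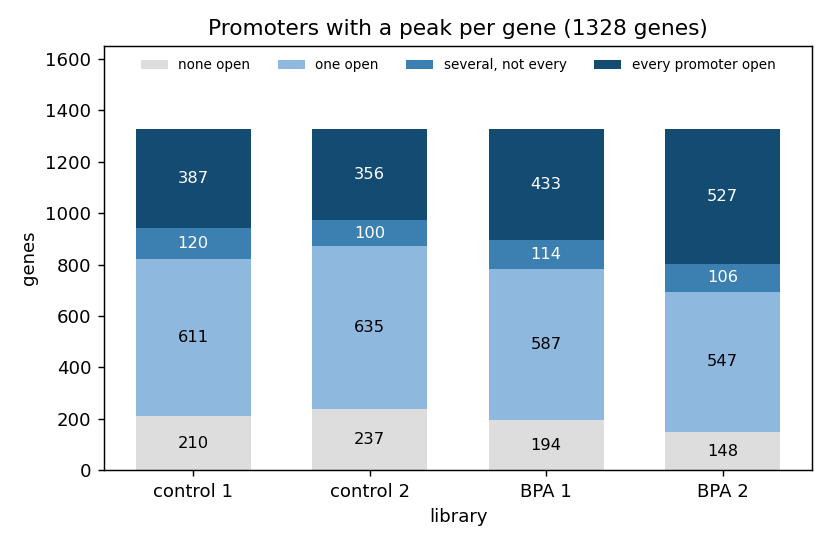
Number of the 1328 genes (y axis) by how many of their promoters had a peak, in each library (x axis). Colours stand for no open promoter, 1 open, several but not every one, and every promoter open. One open promoter was the most common state in each library, from 547 to 635 genes.

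Over all 4 libraries, 646 genes (48.6%) had exactly 1 promoter open in every library, 284 (21.4%) had every promoter open, 98 (7.38%) had several and 300 (22.6%) had none. The set of open promoters was identical in the 4 libraries for 824 genes. Of the 42 genes with 4 promoters 1 had every one open in the 4 libraries, and among the 9 genes with 5 or 6 promoters no gene had more than 3. Snrpn, an imprinted gene of a small nuclear ribonucleoprotein, had 6 promoters over 445 kb, and P6 alone was open, within 1 kb of a start site of Snurf. Sox6, a transcription factor gene with 6 promoters, had P2 and P5 open in all libraries. Abr had P1, P4 and P6 of 6 open in all libraries. Ablim1, an actin-binding protein, had P1, P4 and P5 of 5, and 1700019D03Rik had P2, P3 and P4 of 5.

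The first promoter was open more often than the later ones. First promoters were open in 66.6% and 64.5% of genes in the control libraries and in 69.6% and 73.6% in the BPA libraries. Later promoters were open in 48.7% and 45.7% in the controls and 50.3% and 57% in BPA. The difference was 18.1 ± 1.19 percentage points (SD, n = 4 libraries) and was positive in 4 of 4 libraries (exact sign-flip permutation test, two-sided, p = 0.13, the smallest that 4 libraries can give, so that this test could not pass 0.05). It was 18.3 ± 0.688 in controls and 17.9 ± 1.91 in BPA (SD, n = 2 each), a gap smaller than the spread between replicates. Promoters of all members were open less often than those of the 18693 genes whose start sites all lay within 5 kb, by 4.77 ± 1.69 points (SD, n = 4), lower in 4 of 4 libraries (exact sign-flip permutation test, two-sided, p = 0.13).

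**Figure D2:**
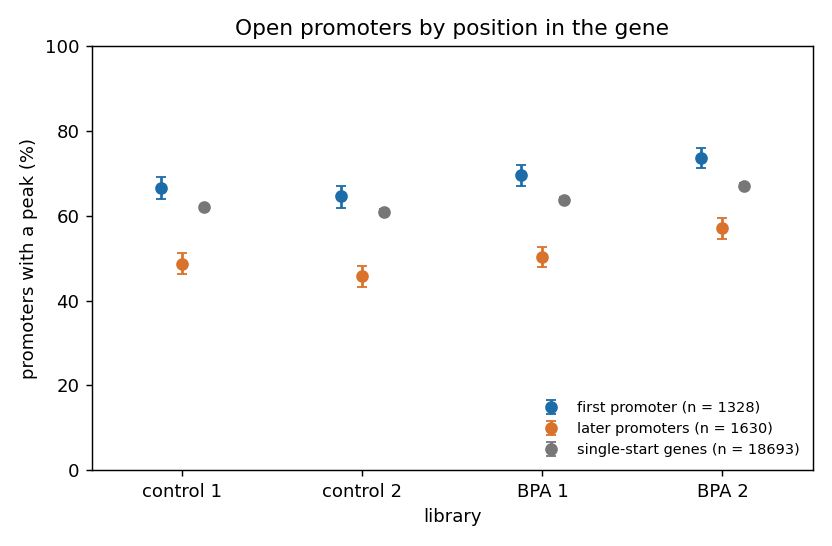
Share of promoters with a peak (y axis, percent) in each library (x axis) for first and later promoters of genes with alternative promoters and for genes with a single promoter. Bars are 95% Wilson intervals, narrower than the symbol for single-start genes. First promoters lay between 64.5 and 73.6%, above the later promoters in each library.

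Where exactly 1 promoter was open, it was P1 in 65.8% and 66.1% of the genes in the controls and in 68.7% and 66.0% in BPA. Among the 646 genes with 1 promoter open in every library it was P1 in 444 and a later promoter in 202. RefSeq marks 1 transcript per gene as representative, and its promoter was P1 in 62.1% of the genes. The single open promoter was the representative one in 75.9 to 79.3% of genes across the libraries. All 1630 later promoters lay inside a transcript that starts upstream, 1581 of them (97.0%) in an intron and 49 in an exon. In genes with 2 promoters the median distance between them was 19.9 kb, with a range of 5.00 to 2184 kb. Both promoters were open in all libraries in 21.9% of 292 pairs up to 10 kb apart, 22.2% of 397 pairs at 10 to 30 kb, 30.3% of 271 pairs at 30 to 100 kb and 27.1% of 129 pairs farther apart. Pairs that share a coding start in at least some of their transcripts, which then encode the same N terminus, made up 460 of the 1089. Both promoters were open in all libraries in 23.0% of these and in 25.9% of the others.

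The difference between first and later promoters was smaller among promoters of like CpG content. A promoter was called CpG-rich when its 1001 bp had a GC content of at least 50% and at least 0.6 of the CG dinucleotides expected from its C and G content. Of the first promoters 50.8% were CpG-rich, and of the later ones 18.3%. CpG-rich promoters were open in all libraries in 87.5% of 674 first and 82.3% of 299 later promoters. The others were open in all libraries in 33.0% of 654 first and 29.2% of 1331 later promoters. Within the CpG-rich class the first minus later difference was 1.87 ± 1.25 points, and within the other class 2.22 ± 1.06 points (SD, n = 4 libraries, positive in 4 of 4 for both), against 18.1 points without the split. Against single-start genes the direction turned in the other class. There, single-start promoters were open in 32.8%, 31.4%, 33.9% and 38.4% of 9530 cases, controls first, below first promoters (41.6%, 39.6%, 44.0% and 48.9%) and below later ones (39.7%, 36.8%, 40.7% and 48.0%) in 4 of 4 libraries. Of the single-start promoters 49.0% were CpG-rich. Among promoters with under 0.2 of the expected CG dinucleotides the order was the opposite. There, later promoters were open in 24.5%, 23.2%, 27.2% and 32.6% of 383 cases in the same order, and first promoters in 16.8%, 12.9%, 18.1% and 22.6% of 155. Single-start promoters of this kind were open in 8.20 to 12.0% of 3888 cases.

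**Figure D3:**
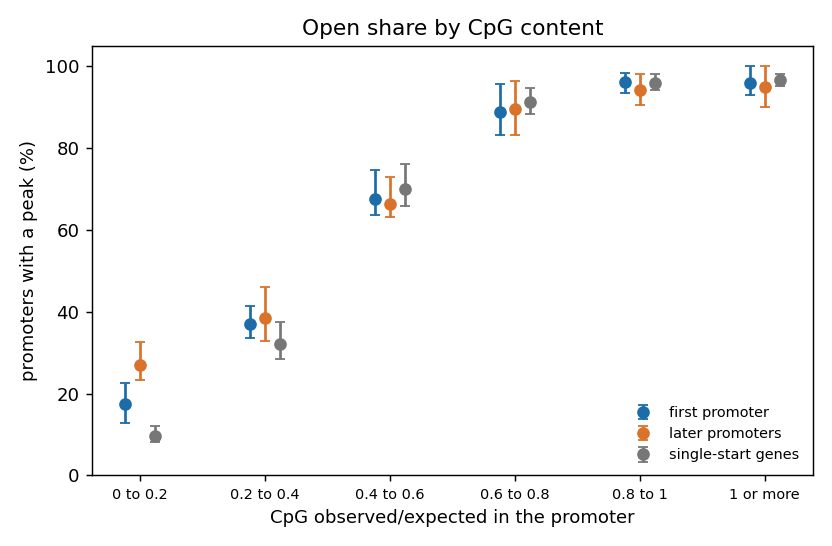
Share of promoters with a peak (y axis, percent) by the observed over expected number of CG dinucleotides in the 1001-bp promoter (x axis). Points are means over the 4 libraries and bars run from the lowest to the highest library. The last bin holds 43 first and 10 later promoters. First and later promoters lay close together from 0.2 upward, and below 0.2 the later ones were higher.

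The pairing of CpG classes within a gene separated the patterns further. In 459 genes with 2 promoters only P1 was CpG-rich, and P1 alone was open in all libraries in 64.5% of them. In 142 genes only P2 was CpG-rich, and P2 alone was open in 53.5%. In 87 genes both were CpG-rich, and both were open in 70.1%. In 401 genes neither was, and neither was open in 47.9%. Rarb, Mlxipl and Lmo2 belonged to the genes with a CpG-rich P2, whereas Thrb and Rxra had a CpG-rich P1. The sequence TATAAA at 40 to 21 bases before the start site, on the strand of the gene, was found in 0.904% of first, 1.41% of later and 2.92% of single-start promoters. Start sites of another gene lay within 1 kb of 14.5% of first and 3.44% of later promoters, and a peak there cannot be assigned to 1 of the genes.

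The fold was more often higher at first promoters. Strength is given as the authors' fold over local background at the summit, or as the rank of the peak by q-value in its own list, where 0% is the best. Among genes with 2 promoters, both open in a library, the fold was higher at P1 in 64.9% of 359 and 55.8% of 328 genes in the controls and in 62.1% of 398 and 63.8% of 470 genes in BPA. The median fold at promoters open in all 4 libraries was 5.16 and 5.83 in the controls and 8.86 and 8.42 in the BPA libraries, so that folds are compared below only within a library.

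Among nuclear receptors and their coregulators, 19 of 35 listed genes were members, with 22 of 39 promoters open in all libraries (56.4%, against 48.7% of all members' promoters). Both promoters were open in all libraries in Pparg, Rara, Rarg, Rxrg, Rora and Nr4a2. P1 of Pparg had a fold of 2.78 and 3.49 in the controls and 6.75 and 6.88 in BPA, and P2 had 3.57, 4.43, 3.17 and 5.12. The fold was higher at P2 than at P1 in both controls and higher at P1 in both BPA libraries. This order in 1 gene was not tested, and how many other genes changed order between the groups was not counted. By rank P1 stood at 78.5% and 54.9% in the controls and 15.8% and 7.16% in BPA, and P2 at 43.2%, 33.8%, 91.8% and 21.7%. P2 of Rarb had a fold of 6.14 and 6.55 in the controls and 12.2 and 9.76 in BPA, whereas P1, 507 kb upstream, had no peak. P1 alone was open in Thrb, a thyroid hormone receptor, in Rxra, the common dimer partner, in Rorb and Nr1h4, and in Ncor1, a corepressor. Esr1, the estrogen receptor alpha, had P1 open in 4 libraries and P2, 98.2 kb downstream, in all except BPA 1. Hnf4a, a receptor of liver and gut, had no open promoter.

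**Figure D4:**
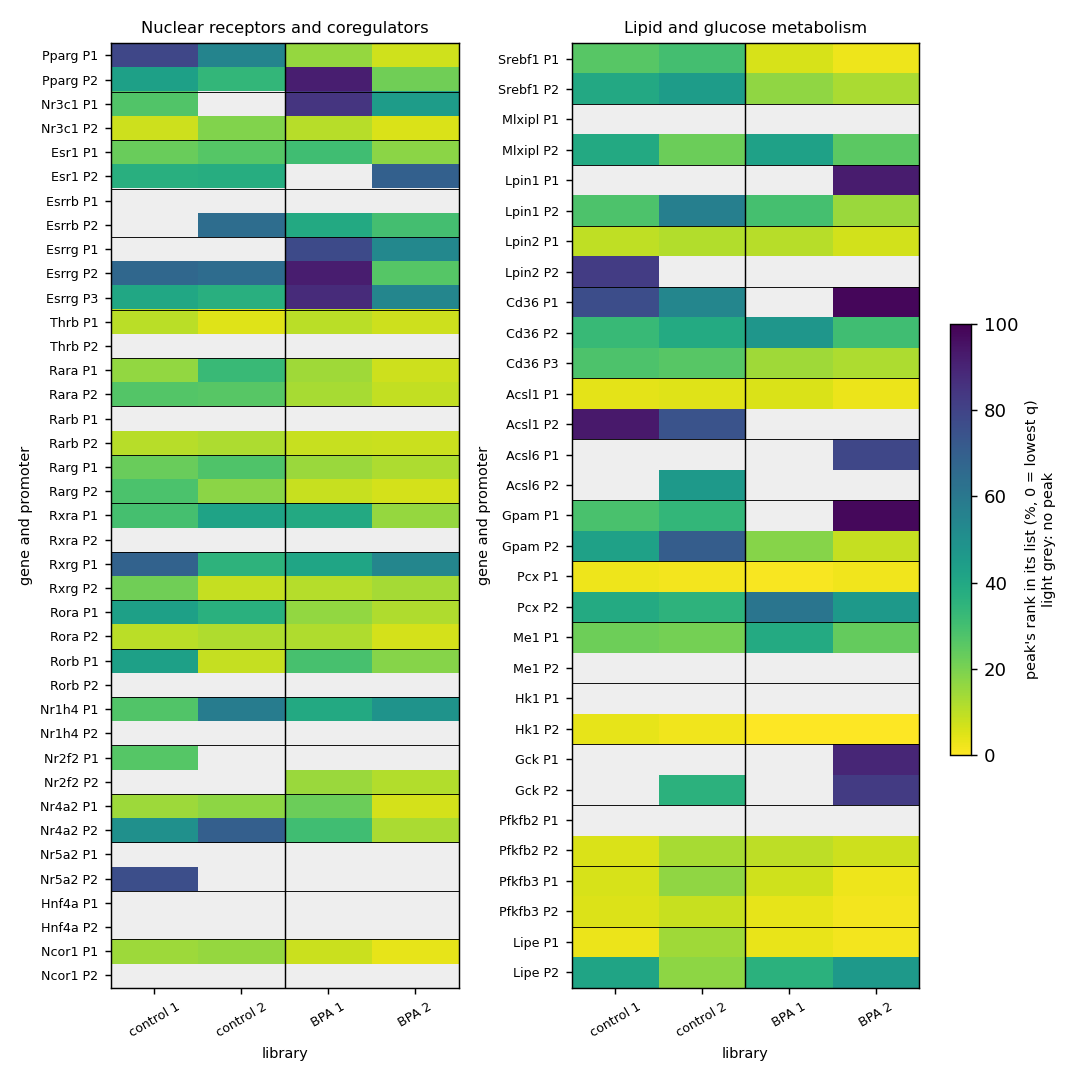
Rank of the peak in its list (colour, percent, 0 is the lowest q-value) at each promoter (rows) in each library (columns) for members among nuclear receptors and among genes of lipid and glucose metabolism, 1 of the latter left out. Light grey marks promoters with no peak. Rarb, Mlxipl, Hk1 and Pfkfb2 had peaks at P2 alone, and Thrb, Rxra and Me1 at P1 alone.

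In lipid and glucose metabolism 16 of 45 listed genes were members, with 19 of 34 promoters open in all libraries (55.9%). Both promoters were open in Srebf1, the driver of fatty acid synthesis genes, in Lipe, the hormone-sensitive lipase, and in Pcx and Pfkfb3. P1 of Lipe ranked at 3.02%, 14.2%, 3.32% and 1.94%, and P2 at 41.8%, 17.1%, 36.3% and 46.1%, controls first. P2 alone was open in Mlxipl, in Pfkfb2 and in Hk1, which encodes a hexokinase. P2 of Hk1, near a start site of Hk1os, ranked at 3.65% and 2.23% in the controls and 0.0373% and 0.0693% in BPA. In Lpin1, a phosphatidic acid phosphatase, P2 was open in all libraries and P1 in BPA 2 only. Cd36, the fatty acid translocase, had P2 and P3 open in all libraries and P1 in all except BPA 1. P1 of Acsl1, an acyl-CoA synthetase, ranked between 3.02% and 5.62%. P2 of Acsl1 was open in the controls only, with weak peaks at 93.0% and 74.4%.

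Signalling genes and transcription factors gave 15 and 18 members. In the insulin, growth factor and cAMP list 19 of 39 promoters (48.7%) were open in all libraries. Akt2 and Prkacb, kinases of the insulin and cAMP pathways, had all 3 promoters open, Vegfa had P1 alone, and Pde10a had P2 of 3. Among transcription factors of mesenchymal and fat cells the share was 29 of 44 (65.9%), with every promoter open in 7 genes, among them Zfp423, Tcf7l2, Zbtb20 and Creb5. P2 of Zfp423, an adipocyte commitment factor, had a higher fold than its CpG-rich P1 in each library, at 4.29, 5.92, 9.07 and 8.58 against 3.45, 2.45, 3.90 and 3.87. Of 17 promoters of 6 imprinted genes 7 were open. Gnas had P1 and P3 open, the latter near a start site of Gm30189, and P2 closed in each library. Cytoskeletal and muscle genes had 15 of 24 (62.5%), with all 3 promoters of Plec open.

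Genes of other cell types served as a check. The defining adipocyte genes Adipoq, Plin1, Cidec, Lep, Fabp4 and Cebpa carried a peak at their promoter in each library, and the hepatocyte genes Alb, Apoa1 and Ttr in no library. Neural members had 7 of 35 promoters open in all libraries, endothelial members 3 of 12 (25.0%) and leukocyte members 3 of 10 (30.0%). Of the 12 neural genes 6 had at least 1 promoter open in all libraries, namely Nrxn3, Dlgap1, Ank2, Map2, Cacna1c and Syn2. All promoters of Rbfox1, Rbfox3 and Kcnip4 had no peak. The neuron marker Snap25 had a promoter peak in each library. Of the 12 endothelial promoters 5 and 4 were open in the controls and 7 and 9 in BPA, where 56.7% and 54.2% of all members' promoters were open in the controls and 59.0% and 64.4% in BPA. Of the 5 endothelial marker genes Kdr and Tek had a promoter peak in the controls, and Pecam1, Cdh5, Kdr, Tek and Emcn in both BPA libraries. Of 5 leukocyte markers 1 and 2 had a peak in the controls and 2 in each BPA library. Mesothelial markers with a peak were 2 of 3 in both controls and BPA 1, and 1 in BPA 2. Epithelial markers with a peak were 2 of 3 in control 1 and in each BPA library, and none in control 2.

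The last question was which genes differed in promoter choice between the groups. With 2 libraries against 2, an exact permutation test cannot give a p-value under 0.33, so counts are given without a test. No gene was switched, that is, had 1 promoter open in both control libraries and no BPA library and another with the reverse pattern. Promoters open in both libraries of a group were identical between the groups in 1015 genes. In 247 genes BPA had additional open promoters only, in 63 it lacked some only, and in 3 (Dnajc6, Slc6a19 and Tspan9) both occurred. Counted by promoter, 278 of 2958 (9.40%) were open in both BPA libraries and not in both controls, against 6.22% of all 21651 promoters. The reverse held for 67 (2.27%), against 1.35% of all promoters, so that the excess in BPA was also present outside the members. Among genes with 2 promoters and only P1 open in controls, 59 had both open in BPA, 322 only P1, 1 only P2 and 7 neither. Of those with only P2 open in controls, 42 had both open in BPA, 116 only P2 and 12 neither. Of 2-promoter genes with both open in controls, 269 had both, 20 only P1 and 6 only P2 open in BPA. In Slc6a19, named after its values were seen, P1 was open in 2 control and 1 BPA library and P2 in 1 control and 2 BPA libraries.

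Promoters open in a single group were few. In controls 23 members' promoters (0.778%, Wilson interval 0.519 to 1.16%) were open in both libraries with none in BPA, against 96 of all 21651 promoters (0.443%). In BPA 131 (4.43%, 3.74 to 5.23%) were open in both libraries with none in controls, against 614 of all promoters (2.84%). Single-start promoters had 0.391% and 2.58%. Later promoters made up 14 of the 23 and 79 of the 131, and 1630 of all 2958 members' promoters. Control-specific were 0.859% of later and 0.678% of first promoters, and BPA-specific 4.85% and 3.92%. None of the 23 control-specific promoters was CpG-rich, and 36 of the 131 BPA-specific ones were (27.5%). By position it was 44.2% of the first and 16.5% of the later BPA-specific ones, against 50.8% and 18.3% of all members' first and later promoters. Of 73 control-specific single-start promoters 11 were CpG-rich (15.1%). Peaks at the group-specific promoters were weaker by median rank than those at promoters open in all 4 libraries. Their median rank was 54.3% and 51.3% in the control libraries and 57.5% and 34.5% in the BPA libraries, against 8.82 to 17.5% for promoters open in all 4. The 23 control-specific promoters lay in 23 genes and the BPA-specific ones in 126 genes, with 2 each in Ace, Egfl7, Fblim1, Lims2 and Mcf2l. Another promoter of the gene was open in all 4 libraries in 14 and 76 of these genes. Without control 2 the control-specific promoters numbered 68, and without BPA 1 the BPA-specific ones numbered 240, with 3 and 2 switched genes. Leaving a library out loosens the rule, so that these counts could not fall.

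The control-specific promoters beside one open in all libraries with the best ranks were in Cnot7, Sox6, Gabrb1, Scn2a, Tmem108, Sh3tc1, Pik3r1 and Ccdc30. P1 of Sox6 had a fold of 5.23 in control 1 and 6.11 in control 2, at ranks of 12.2% and 15.0%, and no peak in BPA. P2 of Sox6, 7.70 kb downstream and near a start site of Sox6os, was open in all libraries at 47.7%, 53.9%, 48.9% and 14.8%. In Gabrb1, a GABA receptor subunit, P2 ranked at 29.4% and 34.4% in the controls, and P1, near a start site of Gabra4, at 27.1% and 22.8% there and 72.0% and 67.3% in BPA. In Scn2a, a sodium channel gene, P1 ranked at 38.8% and 32.9% in the controls and P2 was open in each library. In Pik3r1, P1 ranked at 12.0%, 13.3%, 2.25% and 2.79%, and P2, 75.6 kb downstream, at 52.0% and 61.2% in the controls. Cnot7, a subunit of the CCR4-NOT deadenylase, carried a single peak of 1876 bp in control 1 and 1685 bp in control 2 that reached P2 from a start site of P1 1275 bp upstream, so that its P2 had no peak of its own. A start site of Vps37a lay within 1 kb of P1 of Cnot7. Without another promoter open in all libraries, P1 of Csad, an enzyme of taurine synthesis, ranked at 11.3% and 16.5% in the controls, but lay within 1 kb of a start site of Zfp740. Clec2g, Pifo and Lmo3 followed, with Lmo3 P2 near a start site of A830011K09Rik.

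**Figure D5:**
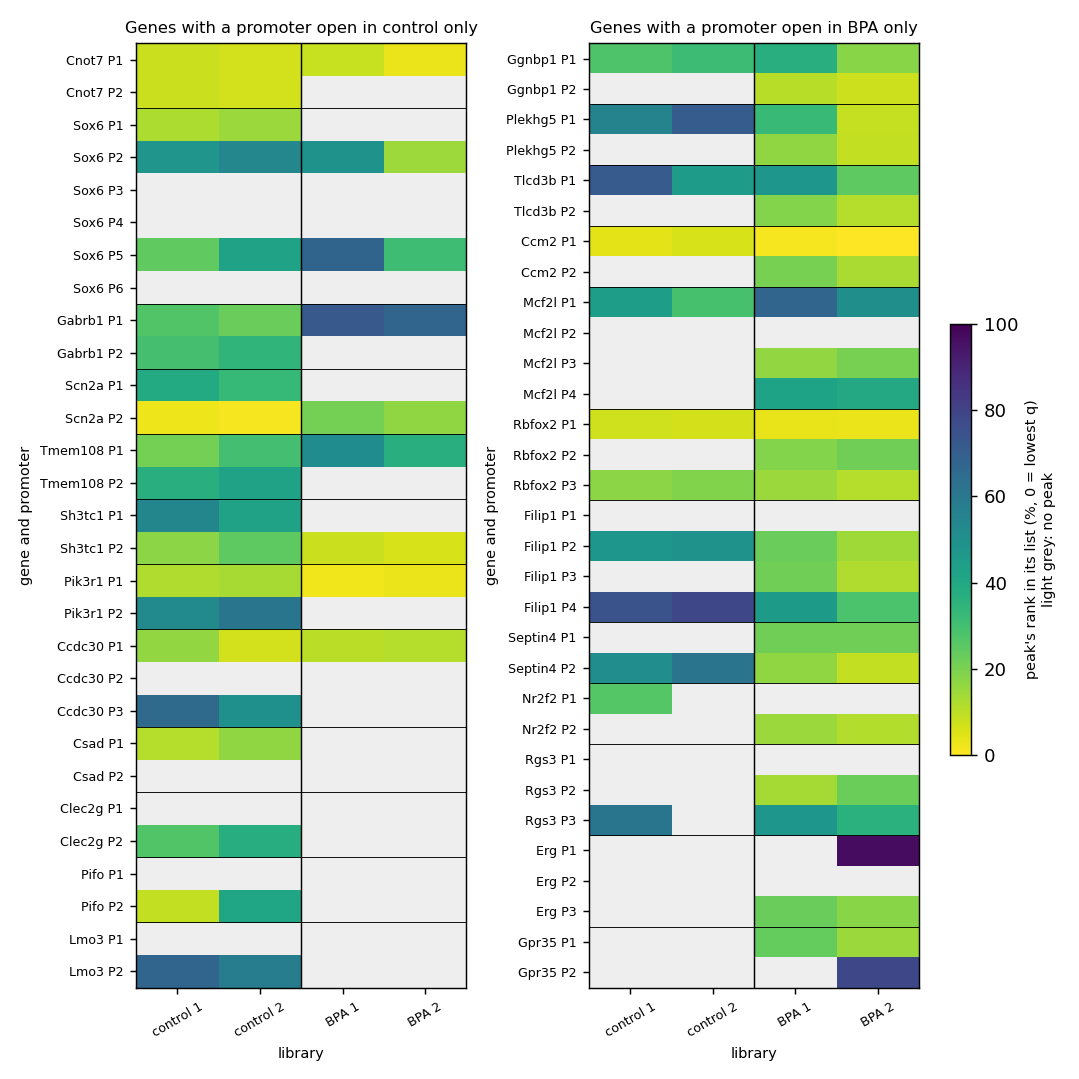
Rank of the peak in its list (colour, percent, 0 is the lowest q-value) at each promoter (rows) in each library (columns) for genes with a promoter open in both control libraries and no BPA library (left) or the reverse (right). Light grey marks promoters with no peak. P2 of Cnot7 has the colours of P1 in the controls because 1 peak covered both.

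Beside a promoter open in all libraries, the BPA-specific promoters with the best ranks were in Ggnbp1, Plekhg5, Tlcd3b, Ccm2, Mcf2l, Rbfox2, Filip1 and Septin4. P2 of Ggnbp1 ranked at 10.7% and 7.47% in BPA and lay within 1 kb of a start site of Bak1, an apoptosis effector. P2 of Plekhg5 had a fold of 6.02 in BPA 1 and 7.13 in BPA 2, at 16.4% and 9.09%, and P1 was open in all libraries. P2 of Ccm2, 13.3 kb from P1, had a fold of 7.50 and 6.71 at ranks of 20.5% and 12.7%, and P1 ranked at 4.07%, 5.96%, 1.28% and 0.298%. In Rbfox2, a splicing regulator, P1 and P3 were open in all libraries, and P2 between them only in BPA, at 18.4% and 21.7%. In Mcf2l, P3 and P4 were open in BPA only. P3 of Filip1 ranked at 21.7% and 11.8%, and P1 of Septin4, near a start site of Gm34000, at 21.6% and 21.8%.

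Where no promoter was open in all libraries, the best-ranked BPA-specific promoters were in Nr2f2, Rgs3, Erg and Gpr35. P2 of Nr2f2 had a fold of 5.20 in BPA 1 and 4.44 in BPA 2, at 15.1% and 11.5%. P1 of Nr2f2 had a peak in control 1 alone, at 26.4%. P3 of Erg, an ETS factor of endothelial cells, had a fold of 6.45 and 5.07 in BPA, and P2 had no peak. Both promoters of Egfl7, a protein secreted by endothelium, were open in BPA only, with P1 at 32.7% and 21.4% and P2 at 84.2% and 37.0%. Of the endothelial list 3 of 12 promoters (25.0%) were BPA-specific, beside the additional peaks at Pecam1, Cdh5 and Emcn. In the leukocyte list it was 2 of 10, P2 of Runx3 and P2 of Ptprj. The part of these cell types in the differences was not tested. Among all members' promoters 4.43% were BPA-specific. Nuclear receptors had 2 of 39 (5.13%, P1 of Esrrg and P2 of Nr2f2), transcription factors of mesenchymal and fat cells 2 of 44 (4.55%, P2 of Nfia and P2 of Mitf) and cytoskeletal genes 2 of 24 (P1 of Tpm3 and P2 of Ank1). The metabolic, signalling, imprinted and neural lists had none. Control-specific promoters on the lists were P2 of Acsl1, P2 of Pik3r1 and P1 of Sorbs2.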

How the data were processed

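ATAC-seq, in which a transposase cuts open chromatin, was run on visceral adipose nuclei of 4 mice, 2 per group. The authors trimmed the reads with Trim Galore, mapped them to mm10 with Bowtie2 2.3.5.1 and called peaks in each library alone with MACS2 2.2.7.1. The deposited score is taken from the −log10 q-value, the deposited ratio is the fold over local background, and the deposited −log10 p-value and q-value come from the peak caller. The lists hold q-values up to 0.05 and no read totals, so that depth is unknown. Other options of the peak caller were not given in the sources used here.

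Start sites of 36208 curated coding transcripts (NM) were taken from RefSeq for GRCm38 and matched to peaks with Python 3.11.15, numpy 2.4.6 and pandas 2.3.3. From the site farthest upstream, a site more than 5 kb from the first of the running promoter opened a new one. Of several peaks at a promoter, the one with the lowest q-value gave fold and rank. CpG content used the first start site. Differences within libraries were tested with the exact sign-flip test, and Wilson intervals came from scipy 1.17.1. The scoring was tested on simulated peaks. Members and lists were chosen with earlier results of these data known. Named genes were, per direction, the 8 group-specific promoters with the best worse rank beside one open in all 4 libraries, 4 without, the 5 genes with most promoters (ties by name), and members of 9 lists. The alternatives tried were peaks with −log10 q of 5 or more, the best 20000 peaks, 1000 bp either side, the summit, gaps of 2 and 10 kb, non-coding transcripts, promoters shared with another gene left out, and leaving out each library. One listed gene is counted in its list but not reported here.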

Additional observations from a re-analysis of the deposited data

How the results depend on the processing

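The first minus later and the member minus single-start differences kept their sign under every alternative, from 16.7 to 20.7 and from -13.7 to -2.29 points, with a p-value that could not pass 0.05. The second moved from -4.77 to -13.7 with the best 20000 peaks, to -7.33 with promoters 2 kb apart and to -2.29 without shared promoters. No paired analysis was possible because the labels name no pairs of control and BPA animals. The values set between the groups are counts and shares that come from no test. The cause of the moves given here was not tested.

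The shares below count a promoter as open in a group when both its libraries had a peak. In the main setting they were 47.9% in control and 44.4% in BPA for 1 open promoter, and 23.7% and 31.7% for every promoter. P1 was then the open one in 67.8% and 68.5%. With peaks of −log10 q of 5 or more, genes with 1 open promoter were 49.2% in control and 47.4% in BPA, those with every promoter open 18.4% and 26.4%, P1 was the open one in 67.0% in control, and 15 promoters were control-specific. With the best 20000 peaks these were 40.1% and 49.1% for 1 open, 6.85% and 12.7% for every promoter and 69.5% for P1 in control, with 208 BPA-specific promoters, 8 and 37 genes with a group-specific promoter beside one open in all libraries, and 2 switched genes. Of the 23 control-specific and 131 BPA-specific promoters of the main setting, only 3 and 12 were so again with the best 20000 peaks. With −log10 q of 5 or more it was 10 and 84, by summit 15 and 89, and with 1000 bp either side 18 and 106. Promoters 2 kb apart gave 49.3% and 46.7% for 1 open, 20.7% for every promoter and 67.4% for P1, the last 2 in control. Promoters 10 kb apart gave P1 in 70.3% in control and 71.4% in BPA. With 1000 bp either side, control had 26.4% with every promoter open and P1 in 67.4%. By summit, control had 16.8% and 63.6%, BPA had 23.3% with every promoter and 46.8% with 1 open, and 2 genes were switched. Without promoters shared with another gene, control had 20.6% and 67.0%.

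Leaving out each library in turn, genes with 1 open promoter ranged from 46.0 to 47.9% in control and 41.2 to 44.4% in BPA, those with every promoter from 23.7 to 29.1% and 31.7 to 39.7%, and P1 from 65.8 to 67.8% and 66.0 to 68.7%. Control-specific promoters ranged from 31 (without BPA 1) to 68 (without control 2) and BPA-specific ones from 144 (without BPA 2) to 240 (without BPA 1). Genes with such a promoter beside one open in all libraries ranged from 18 to 43 and from 81 to 136. Switched genes ranged from 0 to 3. Without control 2 they were Nr2f2, Plekha7 and Tpst2, and without BPA 1 Abcg8 and Gramd1b. The rule is looser with a library left out, so that counts of group-specific promoters and of switched genes could not fall.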
